A study of Schizosaccharomyces pombe with 12 samples.

Results

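The comparison set 2 mutants of histone H3 lysine methylation side by side in the fission yeast Schizosaccharomyces pombe at 30°C, without reference to wild-type cells. The members are 4 of the 12 libraries of the series, taken by their labels: 2 libraries of lsd1-ΔHMG cells and 2 of set1Δ cells. In lsd1-ΔHMG the C-terminal part of Lsd1 that holds its HMG domain is removed, while the gene is otherwise kept, and in the study's strains the truncated protein carries a C-terminal FTP tag. In set1Δ the gene of the only H3K4 methyltransferase is deleted. The other 8 libraries are wild-type cells at 30°C and 37°C and the same mutants after a shift to 37°C. The labels call every sample whole cell and give no further alleles. The strain list of the study gives the mutants a common background with alleles of leu1, ade6 and his2, a truncated ura4 gene and a ura4+ reporter placed in the outer repeat of a centromere. Which strains were sequenced is not given in the sources used here. According to the methods the replicates of a genotype were derived independently, and nothing further on their origin is given.

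Set1 is the catalytic subunit of COMPASS, a complex that methylates H3K4 at the start of transcribed genes and is also known for repressing stress genes, subtelomeric genes and transposons in fission yeast. Lsd1 and its paralogue Lsd2 are amine oxidases of the demethylase family and sit in a complex with the PHD finger proteins Phf1 and Phf2, bound mainly at promoters. The HMG domain is a DNA-binding fold. The Lsd1/2 complex and COMPASS act on the same histone residue, and a direct contrast of the mutants asks how far apart their transcriptomes lie.

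Each library held between 29306221 and 33282796 counts. The median feature had a log2 fold change of 0.03 after TMM scaling. That scaling centres most features near 0, so the value does not measure how alike the mutants are. Levels are given as CPM, the count of a feature scaled to the TMM-normalized library size of the 4 libraries, and a log2 fold change is always lsd1-ΔHMG over set1Δ. A feature was called when edgeR's quasi-likelihood test gave a Benjamini-Hochberg adjusted p under 0.05 and the log2 fold change was at least 1 in either direction. The replicates of a mutant lay close together, with a Pearson correlation of log2 CPM of 0.993 in lsd1-ΔHMG and 0.997 in set1Δ, against 0.841 to 0.868 between the mutants. The 10 most abundant features took 4.88% and 5.09% of the counts in lsd1-ΔHMG and 8.95% and 9.22% in set1Δ. Reads from long non-coding RNAs made up 3.77% and 3.84% in lsd1-ΔHMG and 5.15% and 5.31% in set1Δ. The TMM factors differed too, at 1.21 and 1.16 in lsd1-ΔHMG and 0.849 and 0.841 in set1Δ, and the balance of higher and lower calls depends on them.

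The alleles were first checked in every library. The set1 gene (SPCC306.04c) was at 65.4 and 56.8 CPM in lsd1-ΔHMG and 12.97 and 12.9 CPM in set1Δ, which is 4.73-fold lower in set1Δ (log2 fold change 2.24, standard error 0.0955, adjusted p = 1.5e-07 from edgeR), and both set1Δ libraries lay below both lsd1-ΔHMG libraries. Reads still fell on set1 in set1Δ, with 324 counts in the first of its libraries, so the deletion lowers but does not empty the annotated gene. The lsd1 gene, of which the truncation removes only a part, was at 44.6 and 42.3 CPM in lsd1-ΔHMG and 51.1 and 47.6 CPM in set1Δ. That difference (log2 fold change -0.18, standard error 0.0722, adjusted p = 0.042 from edgeR) lay under the limit for a call, also when GC content and gene length entered the fit as offsets (-0.81). The paralogue lsd2 was at 59.7 and 57.6 CPM in lsd1-ΔHMG and 34.7 and 34.4 CPM in set1Δ (log2 fold change 0.76), also under the limit. The H3K9 methyltransferase gene clr4 was at 38.5 and 35.3 CPM in lsd1-ΔHMG and 15.3 and 12.9 CPM in set1Δ and was called higher in lsd1-ΔHMG (log2 fold change 1.39, standard error 0.109, adjusted p = 4.8e-06 from edgeR).

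Among the genes that could tell strains apart, ura4, which makes orotidine 5'-phosphate decarboxylase, was at 221 and 258 CPM in lsd1-ΔHMG and 575 and 596 CPM in set1Δ (log2 fold change -1.29, standard error 0.0844, adjusted p = 1.6e-06 from edgeR). Reads of a truncated ura4 gene and of a reporter cannot be told apart in the table. The M-specific mating-type regulator mat1-Mc was at 34.4 and 39.7 CPM in lsd1-ΔHMG and 13.05 and 13.5 CPM in set1Δ and was called (log2 fold change 1.48). Its silent copy mat3-Mc has the same length and nearly the same counts, so the reads of these copies were divided between them and neither value stands alone. The other M-specific gene, mat1-Mi, was at 6.02 and 4.699 CPM in lsd1-ΔHMG and 5.56 and 5.16 CPM in set1Δ and was not called (log2 fold change 0.00, adjusted p = 0.99 from edgeR), although it was with the offsets (log2 fold change 1.91). M-type genes were thus read in all 4 libraries. The biosynthetic genes leu1 (304 and 322 CPM in lsd1-ΔHMG and 159 and 140.2 CPM in set1Δ) and ade6 (68.1 and 69.1 CPM in lsd1-ΔHMG and 30.5 and 26.6 CPM in set1Δ) were called higher in lsd1-ΔHMG, and his2 was not (log2 fold change 0.52). Neither leu1 nor ade6 was called with the offsets described below, and leu1 was under the limit without the second set1Δ library (log2 fold change 0.97).

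Of 6829 features tested, 2949 were called, which is 43.2% of them. In lsd1-ΔHMG 1186 features were higher (17.4%) and 1763 were lower (25.8%), so 40.2% of the calls were in the direction of lsd1-ΔHMG. The groups of libraries did not overlap for any called feature, but that held for 93.4% of all tested features, and a lack of overlap alone says little here. The median size of a called difference was 1.499 on the log2 scale, and 109 features differed by over 3, of which 72 were higher in set1Δ and 37 in lsd1-ΔHMG. The number called was stable under other scalings but the balance was not. With TMM factors from protein-coding genes 770 features were higher and 2057 lower, or 27.2% higher, and the median feature moved to -0.19. With upper-quartile factors 1707 were higher and 1498 lower, or 53.3% higher, with the median at 0.22. The values of single genes below are to be read relative to these shifts.

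**Figure D1:**
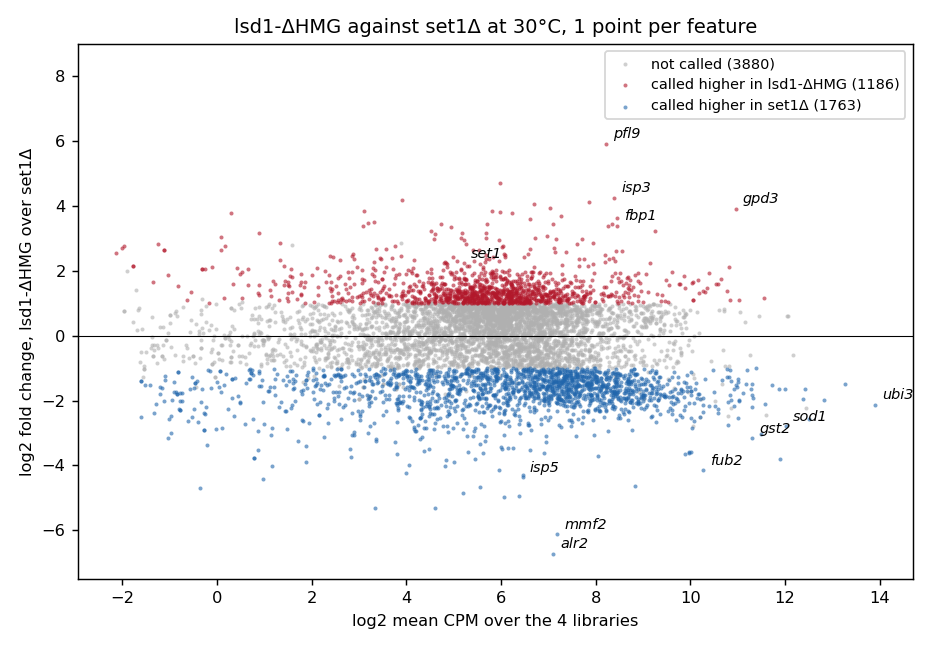
Log2 fold change of lsd1-ΔHMG over set1Δ at 30°C against the log2 mean CPM of the 4 libraries, with 1 point for each of the 6829 features tested. Features called higher in lsd1-ΔHMG are red (1186), those called higher in set1Δ blue (1763) and the rest grey. Differences reach from -6.72 (alr2) to 5.92 (pfl9), and calls occur over the whole range of abundance.

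The genes that stood furthest above in set1Δ were led by alr2 and mmf2. The alanine racemase gene alr2 (SPBC359.02) was at 2.75 and 2.39 CPM in lsd1-ΔHMG and 258 and 288 CPM in set1Δ, a 106-fold difference (log2 fold change -6.72, standard error 0.105, adjusted p = 1.7e-08 from edgeR). The gene mmf2, annotated for isoleucine synthesis, was at 3.396 and 4.93 CPM in lsd1-ΔHMG and 275 and 300.2 CPM in set1Δ (log2 fold change -6.12, standard error 0.167, adjusted p = 1.1e-06 from edgeR). For both genes the lsd1-ΔHMG level was only a few CPM. mug15 was at 2.702 and 2.22 CPM in lsd1-ΔHMG and 70.6 and 71.2 CPM in set1Δ (log2 fold change -4.84, adjusted p = 2.6e-08 from edgeR). The amino acid transporter gene isp5, known from nitrogen starvation, was at 7.91 and 8.46 CPM in lsd1-ΔHMG and 167 and 169 CPM in set1Δ (log2 fold change -4.36, standard error 0.0734, adjusted p = 1.8e-08 from edgeR). fub2, which codes for a protein of the PI31 proteasome regulator family, was the most abundant gene of this group after gst2, at 136 and 127 CPM in lsd1-ΔHMG and 2323 and 2363 CPM in set1Δ (log2 fold change -4.15, standard error 0.0829, adjusted p = 2.4e-08 from edgeR).

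The remainder of the 10 lowest genes included 2 members of a subtelomeric family of transmembrane proteins. The others were a transcription factor annotated for copper, a septin and an antioxidant enzyme. ftm6 was at 5.603 and 6.16 CPM in lsd1-ΔHMG and 78.2 and 85.4 CPM in set1Δ (log2 fold change -3.799) and ftm7 at 1.39 and 2.83 CPM in lsd1-ΔHMG and 23.1 and 28.9 CPM in set1Δ (log2 fold change -3.64). Reads of such related genes may be divided between copies, so their separate values are uncertain. The product of cuf2 is annotated as a Cu metalloregulatory transcription factor. The gene was at 2.18 and 2.89 CPM in lsd1-ΔHMG and 25.5 and 23.3 CPM in set1Δ (log2 fold change -3.27). The meiotic septin gene spn5 was at 9.17 and 9.92 CPM in lsd1-ΔHMG and 90.97 and 91.7 CPM in set1Δ (log2 fold change -3.26). The glutathione S-transferase gene gst2 was at 511 and 508 CPM in lsd1-ΔHMG and 4552 and 4605 CPM in set1Δ (log2 fold change -3.17, standard error 0.074, adjusted p = 3.1e-08 from edgeR). For these 5 genes the adjusted p from edgeR was at most 6.2e-04, reached by ftm7. Libraries of the mutants that did not overlap were a condition for naming the 10 lowest genes.

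isp5 and mmf2 are adjacent protein-coding genes on the same strand of chromosome I in the RefSeq annotation, and their neighbours were looked at after these values were seen. The gene before isp5, SPAC1039.08, differed by -0.71 on the log2 scale and the one before that, SPAC1039.07c, by -0.89. The gene after mmf2, the glutathione transferase gene gto1, differed in the other direction (114 and 112 CPM in lsd1-ΔHMG and 38.1 and 34.3 CPM in set1Δ, log2 fold change 1.64). mmf2 and gto1 overlap on opposite strands, so some of their reads may be shared, although their values went in opposite directions. Within this stretch the differences over 3 were those of isp5 and mmf2.

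The 10 genes that stood furthest above in lsd1-ΔHMG included 4 flocculin genes and the enzyme genes gpd3 and eno102. The most extreme was pfl9 (SPAC186.01), a DIPSY family glycoprotein of the flocculin group, at 581 and 591 CPM in lsd1-ΔHMG and 10.01 and 9.296 CPM in set1Δ, a 60.7-fold difference (log2 fold change 5.92, standard error 0.0756, adjusted p = 1.1e-08 from edgeR). gsf2, the dominant flocculin of fission yeast, was at 446 and 436 CPM in lsd1-ΔHMG and 25.01 and 25.2 CPM in set1Δ (log2 fold change 4.13, standard error 0.0618, adjusted p = 1.7e-08 from edgeR). pfl8 was at 189.6 and 202 CPM in lsd1-ΔHMG and 11.6 and 11.7 CPM in set1Δ (log2 fold change 4.07) and pfl4 at 243 and 246 CPM in lsd1-ΔHMG and 17.05 and 14.9 CPM in set1Δ (log2 fold change 3.94). Libraries of the mutants that did not overlap were a condition for naming these genes as well.

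isp3, a gene induced in sexual development that codes for a spore wall protein, was at 626 and 655 CPM in lsd1-ΔHMG and 32.98 and 34.1 CPM in set1Δ (log2 fold change 4.25, standard error 0.0695, adjusted p = 1.8e-08 from edgeR). The glyceraldehyde 3-phosphate dehydrogenase gene gpd3 was at 3425 and 4048 CPM in lsd1-ΔHMG and 268 and 226 CPM in set1Δ (log2 fold change 3.92, standard error 0.129, adjusted p = 1.6e-07 from edgeR), the most abundant of the 10. The enolase gene eno102 was at 288 and 288 CPM in lsd1-ΔHMG and 25.7 and 18.998 CPM in set1Δ (log2 fold change 3.69, adjusted p = 6.3e-06 from edgeR). rds1, a stress-responsive gene, was at 639 and 659 CPM in lsd1-ΔHMG and 52.5 and 52.2 CPM in set1Δ (log2 fold change 3.63). lsd90 was at 142 and 138 CPM in lsd1-ΔHMG and 11.9 and 8.2002 CPM in set1Δ (log2 fold change 3.796) and hry1, which codes for a cation-binding protein, at 15.5 and 16.8 CPM in lsd1-ΔHMG and 1.28 and 0.934 CPM in set1Δ (log2 fold change 3.86). The gene hry1 was low in set1Δ, with 32 counts in its first library, so its ratio is less precise than the others.

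**Figure D2:**
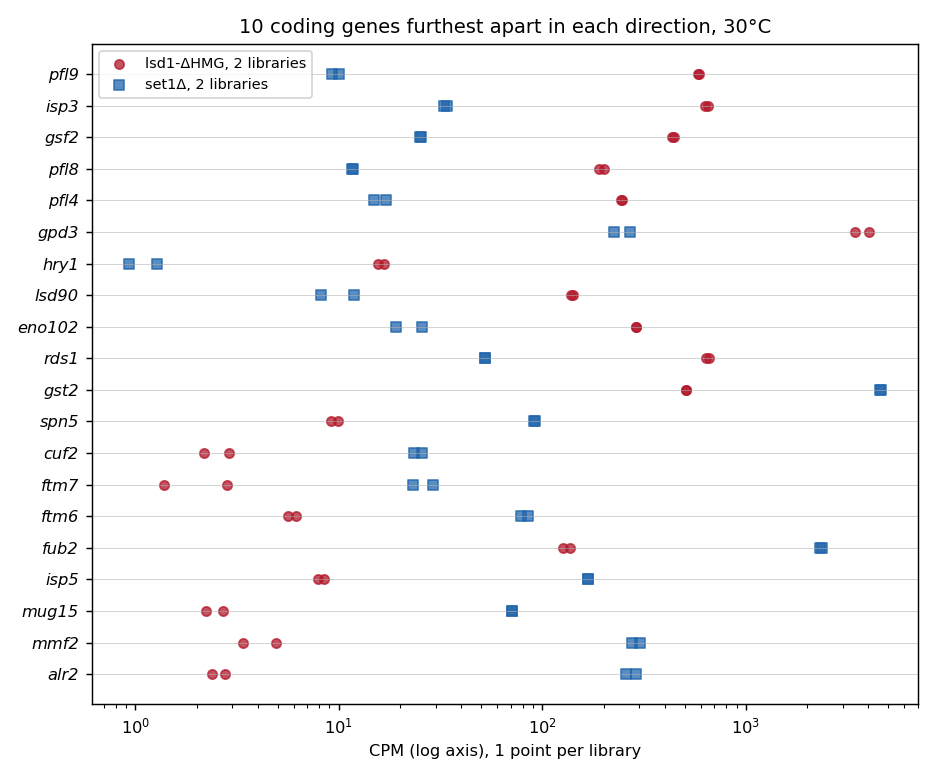
CPM on a log axis in each of the 4 libraries for the 10 protein-coding genes with a symbol that stood highest and the 10 that stood lowest in lsd1-ΔHMG. Red circles are the lsd1-ΔHMG libraries and blue squares the set1Δ libraries, and the symbols of a mutant nearly coincide in most rows. alr2 was at 2.75 and 2.39 CPM in lsd1-ΔHMG and 258 and 288 CPM in set1Δ, and pfl9 showed the opposite order.

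Most flocculin genes were higher in lsd1-ΔHMG. Flocculins are cell wall glycoproteins through which cells adhere to each other. Of 9 tested members 7 were higher and none lower, so 77.8% were called against 43.2% of all features. The median log2 fold change was 3.52 against 0.03 for all features. Beyond the genes above, pfl3 (2.42), pfl6 (3.52) and pfl7 (1.199) were called, and pfl2 (-0.42) and pfl5 (0.38) were not. With the offsets 7 were higher and 1 lower, and at 37°C 6 were higher and 2 lower. The members share repeats, which may divide reads between them.

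Genes of the core stress response were higher in lsd1-ΔHMG as well. The MAP kinase Sty1 activates the transcription factor Atf1, with its partner Pcr1, under many stresses and on glucose exhaustion. Of 15 tested genes of the pathway 12 were higher and none lower (80% called, against 43.2% of all features), with a median of 1.34. The kinase itself did not reach the limit (sty1, log2 fold change 0.11), whereas the MAP kinase kinase gene wis1 (1.29), atf1 (1.34) and pcr1 (1.64) were called. Among the targets, the fructose-1,6-bisphosphatase gene fbp1 was at 694 and 581 CPM in lsd1-ΔHMG and 62.1 and 59.6 CPM in set1Δ (log2 fold change 3.39, standard error 0.0991, adjusted p = 6.5e-08 from edgeR) and the catalase gene ctt1 at 117 and 113 CPM in lsd1-ΔHMG and 22.1 and 18.6 CPM in set1Δ (log2 fold change 2.49). The phosphatase genes pyp1 (1.34) and pyp2 (1.92), which act on Sty1, and the glycerol 3-phosphate dehydrogenase gene gpd1 (1.91) were higher too. With offsets for GC content and gene length, described below, 6 of the 15 were called higher.

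Heat chaperone genes followed the same direction. Of 15 tested, 9 were higher and none lower (60% called, against 43.2% of all features), with a median of 1.24. The Hsp70 gene ssa1 was at 226 and 222 CPM in lsd1-ΔHMG and 27.7 and 25.98 CPM in set1Δ (log2 fold change 3.06, standard error 0.0666, adjusted p = 2.6e-08 from edgeR), and the disaggregase gene hsp104 at 174 and 166 CPM in lsd1-ΔHMG and 39.3 and 39.5 CPM in set1Δ (log2 fold change 2.11, standard error 0.0631, adjusted p = 4.5e-08 from edgeR). The ssa1 paralogue ssa2 (1.39), the Hsp90 gene (1.43), the small heat shock gene hsp16 (1923 and 1922 CPM in lsd1-ΔHMG and 746 and 652 CPM in set1Δ, log2 fold change 1.46) and hsp9 (1.61) were called, while hsp10 (-0.64), the co-chaperone sti1 (0.84) and the Hsp110 gene pss1 (0.12) were not. ssa1 and ssa2 are similar in sequence, so reads may be shared between them. With the offsets 4 of the 15 were called higher.

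The redox genes under Pap1 and Prr1, which answer oxidative stress, did not move as a group. Of 14 tested, 3 were higher and 6 lower (64.3% called, against 43.2% of all features), with a median of -0.31. Lower in lsd1-ΔHMG were gst2 (above), the superoxide dismutase gene sod1 (1017 and 1075 CPM in lsd1-ΔHMG and 7219 and 7309 CPM in set1Δ, log2 fold change -2.796, standard error 0.0761, adjusted p = 3.9e-08 from edgeR), the thioredoxin genes trx1 (-1.81) and trx2 (-2.09), the peroxiredoxin gene pmp20 (-1.38) and obr1 (-1.01). Higher were the mitochondrial superoxide dismutase gene sod2 (1.31), the peroxiredoxin gene tpx1 (1.53) and the metallothionein gene zym1 (2.23). The genes of the regulators, pap1 (0.87) and prr1 (0.20), were not called. The 6 lower calls were the same in number with the offsets.

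Glycolytic and fermentation genes were largely higher in lsd1-ΔHMG. Of 17 tested, 11 were higher and none lower (64.7% called, against 43.2% of all features), with a median of 1.17. gpd3 and eno102 led, and the phosphofructokinase gene pfk1 (1.83), the hexokinase gene hxk2 (1.82), pgi1 (1.61), pgk1 (1.602) and pyk1 (1.36) were smaller differences. With the offsets 2 were higher and 1 lower, and the median was -0.04, so for the group apart from its leading genes the call rested on the model without offsets. Among 8 hexose transporter genes, ght6 (21.5 and 19.4 CPM in lsd1-ΔHMG and 3.12 and 3.33 CPM in set1Δ, log2 fold change 2.66) and the gluconate transporter gene ght3 (17.7 and 16.4 CPM in lsd1-ΔHMG and 6.24 and 7.39 CPM in set1Δ, log2 fold change 1.33) were higher and ght7 was lower (4.39 and 3.68 CPM in lsd1-ΔHMG and 9.16 and 7.31 CPM in set1Δ, log2 fold change -1.03). Of the 8 genes 37.5% were called, against 43.2% of all features. With the offsets ght3 was under the limit (0.91), and of the 8 genes 1 was higher and 2 were lower.

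Nuclear genes of the respiratory chain were higher in 10 of 18 cases and lower in 2 (66.7% called, against 43.2% of all features), with a median of 1.09. The cytochrome c gene cyc1 was at 531 and 571 CPM in lsd1-ΔHMG and 163 and 156 CPM in set1Δ (log2 fold change 1.79, standard error 0.0674, adjusted p = 9.2e-08 from edgeR). The gene of a small subunit of ubiquinol-cytochrome c reductase, qcr8, went the other way, at 439 and 604 CPM in lsd1-ΔHMG and 1768 and 1826 CPM in set1Δ (log2 fold change -1.78, standard error 0.165, adjusted p = 2.6e-04 from edgeR). With the offsets 3 were higher and none lower. Genes of translation elongation factors were higher in 5 of 7 cases, led by tef103 (2763 and 3131 CPM in lsd1-ΔHMG and 718 and 631 CPM in set1Δ, log2 fold change 2.13) and tef102 (1262 and 1385 CPM in lsd1-ΔHMG and 454 and 417 CPM in set1Δ, log2 fold change 1.603), which code for nearly identical proteins and may share reads. Of the 7 elongation factor genes 71.4% were called, against 43.2% of all features. With the offsets none was higher and 1 was lower.

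Genes of mating and pheromone signalling were higher in 9 of 18 cases, and none was lower, with a median of 1.10. The share called was 50%, near the 43.2% of all features. The M-factor pheromone genes mfm1 (56.5 and 74.95 CPM in lsd1-ΔHMG and 9.12 and 7.92 CPM in set1Δ, log2 fold change 2.95, standard error 0.176, adjusted p = 2.3e-05 from edgeR) and mfm3 (63.1 and 121 CPM in lsd1-ΔHMG and 10.05 and 10.5 CPM in set1Δ, log2 fold change 3.16, standard error 0.507, adjusted p = 0.019 from edgeR) led the list. The lsd1-ΔHMG libraries lay far apart for mfm3, and its adjusted p was 0.084 without the first set1Δ library and 0.09 without the second. The third pheromone gene, mfm2, was not called (-0.53). The GTPase regulator gene rgs1 (2.68), the meiosis regulator gene mei2 (2.31), the pheromone exporter gene mam1 (1.703) and the transcription factor gene ste11 (1.21), which activates many of these genes, were also higher. With the offsets 11 were higher and 1 lower. Meiotic genes that growing cells remove as transcripts did not follow, with 2 of 12 higher and 1 lower (25% called) and a median of 0.11. Of these mcp7 was at 68.5 and 68.1 CPM in lsd1-ΔHMG and 152 and 156 CPM in set1Δ (log2 fold change -1.17, and 0.01 with the offsets) and meu6 at 9.79 and 9.63 CPM in lsd1-ΔHMG and 4.72 and 4.55 CPM in set1Δ (log2 fold change 1.07). The meu6 gene overlaps clr4 on the other strand, and with the offsets it did not differ (log2 fold change 0.04).

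Genes induced by nitrogen starvation were split, with 4 of 15 higher and 6 lower (66.7% called, against 43.2% of all features) and a median of -0.06. isp5, the proline permease gene put4 (-2.25), the uracil-regulated genes urg1 (-1.85) and urg2 (-1.598), isp7 (-1.48) and isp4 (-1.26) were lower in lsd1-ΔHMG. isp3, the protease gene isp6 (1.64), the ammonium transporter gene amt2 (1.22) and fnx1 (1.07) were higher. The list thus holds 1 of the 10 highest and 1 of the 10 lowest coding genes of the comparison. With the offsets 1 was higher and 7 were lower.

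Metal and nutrient uptake genes also differed gene by gene. In the list for iron and copper, 5 of 15 were higher and 3 lower (53.3% called, against 43.2% of all features), with a median of 0.78. The iron permease gene fip1 was at 41.7 and 45.2 CPM in lsd1-ΔHMG and 4.88 and 5.07 CPM in set1Δ (log2 fold change 3.12, standard error 0.104, adjusted p = 6.0e-08 from edgeR) and its partner oxidase gene fio1 differed by 2.105, whereas the vacuolar iron transporter gene pcl1 was at 468 and 443 CPM in lsd1-ΔHMG and 1991 and 2063 CPM in set1Δ (log2 fold change -2.15, standard error 0.0744, adjusted p = 6.8e-08 from edgeR). The iron regulators fep1 (1.17) and php4 (1.46), which act under opposite iron supply, were both higher. Among 10 phosphate and thiamine genes 4 were higher and none lower, with the glycerophosphodiester transporter gene tgp1 at 72.9 and 73.7 CPM in lsd1-ΔHMG and 11.9 and 11.5 CPM in set1Δ (log2 fold change 2.64) and the thiamine synthesis gene nmt1 at 15.4 and 16.6 CPM in lsd1-ΔHMG and 4.16 and 3.29 CPM in set1Δ (log2 fold change 2.101). Both were still called with the offsets. Of the 10 phosphate and thiamine genes 40% were called, near the 43.2% of all features.

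Of 11 histone genes tested, 3 were higher and 3 lower (54.5% called, against 43.2% of all features), with a median of 0.56. The lower genes were the histone H4 genes hhf1 (811 and 805 CPM in lsd1-ΔHMG and 2786 and 2936 CPM in set1Δ, log2 fold change -1.82, standard error 0.0725, adjusted p = 1.1e-07 from edgeR), hhf2 (log2 fold change -1.12) and hhf3 (366 and 409 CPM in lsd1-ΔHMG and 1621 and 1649 CPM in set1Δ, log2 fold change -2.08, standard error 0.0818, adjusted p = 1.1e-07 from edgeR). The higher genes were the H2A gene hta1 (1.05), the H2B gene htb1 (1.29) and the H3 gene hht3 (1.19). The H4 copies, and the H3 copies, are near-identical in their coding parts, and the table divides reads among features, so each single value is uncertain although the H4 genes were all lower. With the offsets hhf3 was still called (log2 fold change -2.01) and hhf1 was under the limit (-0.76). The G1/S targets of the MBF complex were higher in 5 of 10 cases and lower in 1 (60% called, against 43.2% of all features). The ribonucleotide reductase gene cdc22 was at 482 and 486 CPM in lsd1-ΔHMG and 99.5 and 101 CPM in set1Δ (log2 fold change 2.27, standard error 0.0574, adjusted p = 3.7e-08 from edgeR) and the kinase gene mik1 at 37.4 and 36.7 CPM in lsd1-ΔHMG and 9.41 and 8.36 CPM in set1Δ (log2 fold change 2.06). The MBF repressor gene yox1 was the lower member (-1.93). With the offsets 3 were higher and 1 lower.

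Genes of the chromatin machinery to which the mutated proteins belong were called no more often than features as a whole. Among 8 COMPASS subunit genes, set1 itself and swd3 (52.5 and 55.7 CPM in lsd1-ΔHMG and 23.5 and 19.9 CPM in set1Δ, log2 fold change 1.31) were called, which is 25% against 43.2% of all features. In the Lsd1/2 complex phf1 was called (29.7 and 28.6 CPM in lsd1-ΔHMG and 13.6 and 13.4 CPM in set1Δ, log2 fold change 1.11) and phf2 was not (0.89), and 25% of its 4 genes were called. The call for phf1 was lost with TMM factors from protein-coding genes and with the offsets. Among 20 heterochromatin and RNAi genes 5 were higher and 3 lower, so 40% were called, near the 43.2% of all features. Higher were the Dicer gene dcr1 (87.1 and 84.5 CPM in lsd1-ΔHMG and 25.1 and 24.3 CPM in set1Δ, log2 fold change 1.797, standard error 0.0672, adjusted p = 9.0e-08 from edgeR), clr4, the histone deacetylase gene clr3 (1.48), clr1 (1.32) and tas3 (1.19). Lower were the HP1 protein gene chp2 (60.9 and 65.9 CPM in lsd1-ΔHMG and 205 and 212 CPM in set1Δ, log2 fold change -1.72, standard error 0.065, adjusted p = 9.2e-08 from edgeR), rik1 (-1.42) and the anti-silencing gene epe1 (-1.29). With the offsets 2 were higher and 3 lower, and clr4 was no longer called (log2 fold change 0.44). None of the 13 Tf2 retrotransposon genes was called, against 43.2% of all features, with values from 0.09 to 0.99. With the offsets 1 was called higher, and with upper-quartile factors 4 were. Reads of these copies cannot be assigned with certainty.

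Of the ribosomal protein genes, 6 of 55 for the small subunit were lower and none higher, and 5 of 76 for the large subunit were lower and 2 higher. The shares called were 10.9% and 9.21%, against 43.2% of all features, and the medians were 0.28 and 0.32. With the offsets 9 small-subunit genes were lower and none higher, and 8 large-subunit genes were lower and 3 higher. The ubiquitin fusion genes of a small-subunit protein were further apart, with ubi3 at 5095 and 6283 CPM in lsd1-ΔHMG and 24693 and 24966 CPM in set1Δ (log2 fold change -2.13, standard error 0.107, adjusted p = 6.4e-07 from edgeR) and ubi5 at 2501 and 3406 CPM in lsd1-ΔHMG and 11649 and 11618 CPM in set1Δ (log2 fold change -1.98, standard error 0.159, adjusted p = 1.0e-04 from edgeR). Both encode the same fusion protein, and ubi3 was the more abundant in all 4 libraries. In the list of ubiquitin genes and proteasome ATPases they were the 2 lower members of 11, and rpt1 was the higher one (1.27), which was not called with the offsets. Of these 11 genes 27.3% were called. Genes of nucleolar ribosome biogenesis were higher in 6 of 14 cases (42.9% called, against 43.2% of all features), with bms1 at 154 and 154 CPM in lsd1-ΔHMG and 57.6 and 53.3 CPM in set1Δ and utp13 at 73.2 and 72.6 CPM in lsd1-ΔHMG and 27.7 and 27.7 CPM in set1Δ (log2 fold changes 1.48 and 1.395), and none of the 14 was called with the offsets.

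The wall and membrane lists were called less often than features as a whole, at 30.8% each against 43.2%. Of 13 cell wall enzyme genes 4 were higher and none lower, among them the glucanosyltransferase genes gas5 (428 and 366 CPM in lsd1-ΔHMG and 107 and 102 CPM in set1Δ, log2 fold change 1.93) and gas2 (1721 and 1803 CPM in lsd1-ΔHMG and 535 and 528 CPM in set1Δ, log2 fold change 1.73). With the offsets 1 was higher. Of 13 ergosterol and SREBP genes 3 were higher and 1 lower, with the SREBP homologue gene sre1 at 326 and 323 CPM in lsd1-ΔHMG and 104 and 98.6 CPM in set1Δ and the sterol desaturase gene erg32 at 133 and 122 CPM in lsd1-ΔHMG and 41.4 and 42.02 CPM in set1Δ (log2 fold changes 1.68 and 1.61). The squalene synthase gene erg9 was the lower one (-1.32). With the offsets 1 was higher and 2 were lower, and sre1 was under the limit (0.68).

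**Figure D3:**
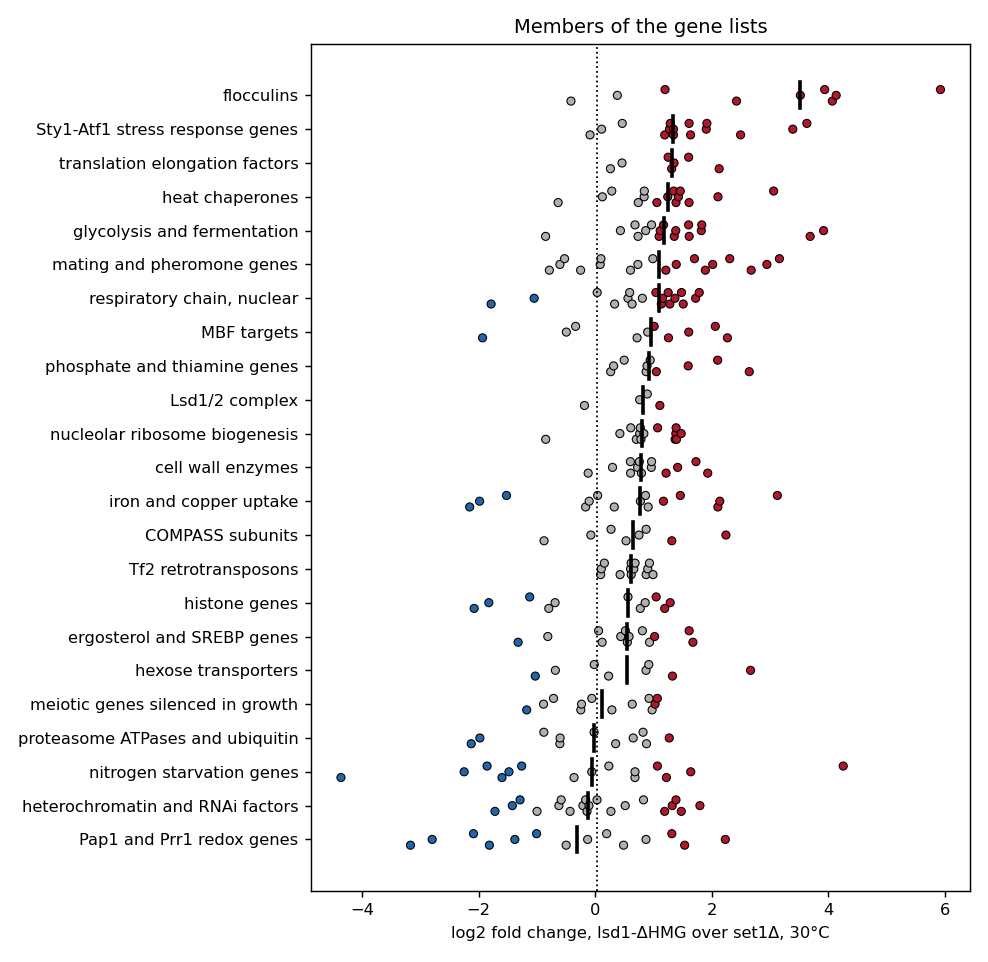
Log2 fold change of lsd1-ΔHMG over set1Δ at 30°C for each tested member of 23 gene lists, ordered by their medians (black bars), with the median of all features as a dotted line. Red points were called higher in lsd1-ΔHMG, blue points higher in set1Δ and grey points were not called. Flocculins stand furthest to the right with a median of 3.52, and the redox list furthest to the left with -0.31.

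Long non-coding RNAs were shifted towards set1Δ, and 47.8% were called against 43.2% of all features. Of 1357 tested, 126 were higher and 523 lower in lsd1-ΔHMG, with a median of -0.66, while protein-coding genes split nearly evenly, with 1033 higher and 1103 lower of 5101 and a median of 0.29. The split of coding genes depended on the scaling, with 665 higher and 1292 lower under factors from coding genes and 1496 higher and 931 lower under upper-quartile factors. The median of the long non-coding RNAs stayed negative, at -0.88 and -0.47. The lowest were prl15 (1.39 and 0.963 CPM in lsd1-ΔHMG and 48.9 and 46.4 CPM in set1Δ, log2 fold change -5.32, standard error 0.153, adjusted p = 4.3e-08 from edgeR), SPNCRNA.291 (4.93 and 5.55 CPM in lsd1-ΔHMG and 153 and 169 CPM in set1Δ, log2 fold change -4.94) and SPNCRNA.1299 (3.42 and 3.65 CPM in lsd1-ΔHMG and 86.01 and 94.3 CPM in set1Δ, log2 fold change -4.67). The highest were meu3 (106 and 104 CPM in lsd1-ΔHMG and 8.08 and 6.495 CPM in set1Δ, log2 fold change 3.85, standard error 0.101, adjusted p = 3.7e-08 from edgeR), SPNCRNA.276 (3.15 and 3.47 CPM in lsd1-ΔHMG and 0.2802 and 0.447 CPM in set1Δ, log2 fold change 3.17) and prl32 (78.3 and 49.3 CPM in lsd1-ΔHMG and 6.52 and 9.296 CPM in set1Δ, log2 fold change 3.01). SPNCRNA.276 overlaps gto1, prl32 overlaps 2 other features and prl15 overlaps a gene on the other strand, so their reads may belong to those. The call for prl32 was lost with the replicate number as a block (adjusted p = 0.069 from edgeR). Among 63 snoRNAs 3 were higher and 25 lower (44.4% called), with a median of -1.16, in libraries made from poly(A) RNA.

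Antisense RNAs, that is, non-coding RNAs lying opposite a coding gene, were lower in 283 and higher in 79 of 841 cases, with a median of -0.52. The share called was 43.0%, near the 43.2% of all features. The other long non-coding RNAs were lower in 240 and higher in 47 of 517 (55.5% called), with a median of -0.91. The coding partners were counted beside them. Of 227 antisense RNAs called lower that overlap a single tested coding gene, the gene was lower in 76 and higher in 31. Of 72 called higher, the gene was higher in 26 and lower in 4. Of 379 that were not called, the gene was higher in 72 and lower in 60. The library kit keeps the strand, and the methods describe filtering aligned reads by strand for a stranded analysis. They do not say whether the deposited counts used it, and the counting options name no strand setting, so reads of a gene may be included in the value of its antisense partner.

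Gene length and base composition moved with the difference. Among protein-coding genes under 1000 bases 9.81% were higher and 40.4% lower in lsd1-ΔHMG, with a median of -0.77, and among genes over 3000 bases 24.9% were higher and 5.58% lower, with a median of 0.63. Among genes with a GC content under 34%, 3.62% were higher and 53.3% lower, and among those over 40%, 40% were higher and 6.72% lower. Across the 5101 coding genes the Pearson correlation of the log2 fold change was 0.427 with GC content and 0.333 with the logarithm of the gene length. Genes are not independent replicates, so these values describe the 4 libraries. Non-coding RNAs were lower in every length class, including those over 2000 bases (7.69% higher and 25.9% lower).

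With offsets that remove the trend of coding genes with GC content and gene length within each library, 2027 features were called, 930 higher and 1097 lower. Of the 2949 calls 1403 (47.6%) were kept in the same direction. All 20 of the most extreme coding genes named above were among those kept, at log2 fold changes of -5.78 for alr2, -5.33 for isp5, 6.07 for pfl9 and 2.59 for gpd3. The trend was fitted on coding genes and applied to other features with GC content and length held within the coding range. The shift of non-coding RNAs then shrank to 239 higher and 270 lower, with a median of -0.15, and that of snoRNAs turned to 12 higher and 2 lower. The snoRNAs had a median length of 112 bases, against 711 in the shortest class of coding genes. Their turn thus rests on a trend seen mostly in longer genes. Antisense RNAs stayed mostly lower (104 higher and 186 lower), whereas the other long non-coding RNAs turned to 135 higher and 84 lower. The part of GC content and length in the differences of the lists was measured only through these offsets, and their origin was not tested.

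**Figure D4:**
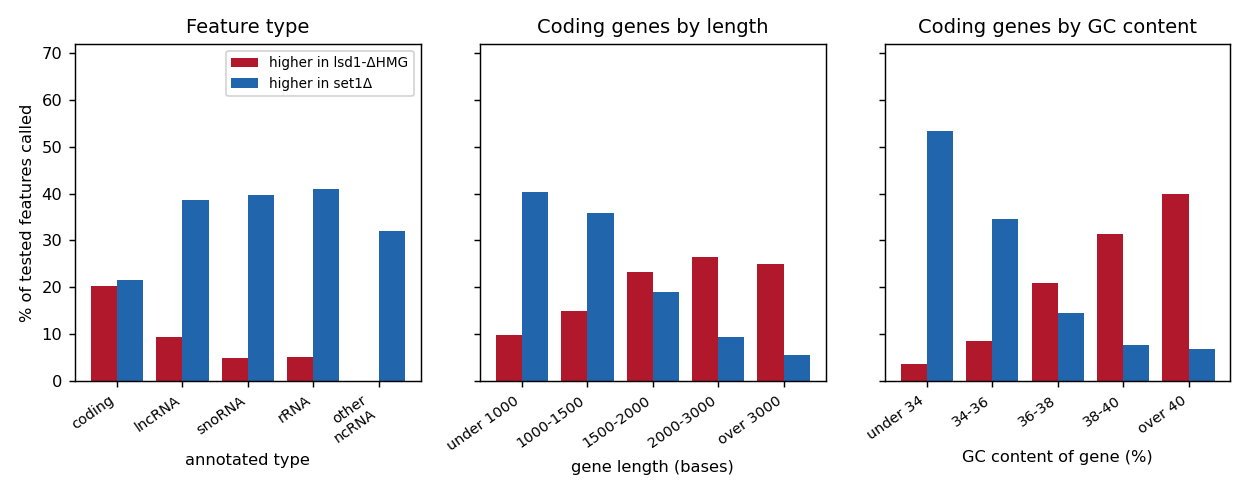
Share of tested features called higher in lsd1-ΔHMG (red) or higher in set1Δ (blue) at 30°C, by annotated type and, for protein-coding genes, by gene length in bases and by GC content in %. Calls towards set1Δ fall from 40.4% to 5.58% with gene length and from 53.3% to 6.72% with GC content, while calls towards lsd1-ΔHMG go from 9.81% to 24.9% with length, past 26.5% in the class below, and from 3.62% to 40% with GC content.

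Of 173 tested features within 100 kb of the ends of chromosomes I and II, 33 were higher and 77 lower in lsd1-ΔHMG, so 63.6% were called against 43.2% of all features, with a median of -0.73. The lean towards set1Δ was smaller with the offsets, at 48 higher and 66 lower and a median of -0.32. Among the genes named above, fub2, ftm6 and ftm7 lie in these regions and were lower, and pfl9, isp3, hry1 and eno102 lie there and were higher. Positions come from the ASM294v3 annotation. Of 119 genes in the study's list of genes bound by tagged Lsd1, 16 were higher and 28 lower, so 37.0% were called against 43.2% of all features, with a median of 0.12. That list comes from the study's chromatin data and not from these libraries. With the offsets 8 were higher and 32 lower.

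Wild-type levels, which the comparison does not use, show on which side of them the mutants lie. On the scale of all 12 libraries, both wild-type libraries were below both mutants for 578 of the 1186 features higher in lsd1-ΔHMG, between them for 348 and above them for 128, with overlap in the rest. For the 1763 features higher in set1Δ, wild-type lay between the mutants for 1202, above them for 177 and below them for 167. alr2 was at 19.2 and 20.8 CPM in wild-type cells, and fub2 at 651 and 601, both between the mutants. pfl9 was at 32.02 and 29.7 and isp3 at 27.6 and 24.6. The wild-type libraries labelled 30°C stand apart in stress genes, with hsp16 at 39225 and 36088 CPM against 4559 and 5816 CPM in those labelled 37°C. They had fbp1 at 6974 and 6097 and mug14 at 14800.1 and 13190.4. These values raise a doubt about the labels, but neither the labels nor the origin of the values was tested. The part of this in the counts above was not tested either.

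The difference between the mutants was measured again in 4 separate libraries after a shift to 37°C. There 1579 of 6856 features were called (23%), 664 higher in lsd1-ΔHMG (9.68%) and 915 lower (13.3%), again with edgeR. Of the features called at 30°C, 35.6% were called in the same direction at 37°C, and of those called at 37°C, 67.0% were called in the same direction at 30°C. The features were 406 that were higher and 644 that were lower at both temperatures, with 37 called in opposite directions. The sign was the same at 37°C for 93.4% of the features called at 30°C and for 74.2% of those not called. The features called at 30°C had a median difference of 1.499 at 30°C and of 0.81 in the same direction at 37°C.

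For some of the leading genes the difference at 37°C was close to that at 30°C. isp3 differed by 4.25 at 30°C and 4.29 at 37°C, mug15 by -4.84 and -5.098, and gst2 by -3.17 and -3.07. eno102 went from 3.69 to 3.18. Others lost most of the difference, such as fub2 (-0.24 at 37°C), prl15 (-0.83) and lsd90 (0.08). The change of the difference was tested as an interaction, the difference at 37°C minus that at 30°C, and 1325 of 6856 features were called (19.3%), 786 upwards (11.5%) and 539 downwards (7.86%). Among the features called at 30°C the interaction was called for 953, and in 919 of these the difference was smaller at 37°C or had turned. The 30°C libraries enter both values, so this count is partly set by the choice of features.

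The 10 genes with the strongest interaction showed a turn of the order in most cases. The adducin gene mug14 went from 2.36 at 30°C to -5.39 at 37°C (interaction -7.75, standard error 0.242, adjusted p = 2.9e-09 from edgeR). The alcohol dehydrogenase gene adh8 went from 1.02 to -2.51, vta1 from 1.87 to -1.72 and hsp16 from 1.46 to -2.01. In the other direction ght7 went from -1.03 to 4.53 (interaction 5.56, standard error 0.334, adjusted p = 2.2e-07 from edgeR), isp5 from -4.36 to 0.66 and the subtelomeric ftm2 from -3.11 to 1.68. ftm6 (1.09 at 37°C) and ftm7 (1.09) turned as well. The 30°C values of adh8 and ght7 lay near the limit and passed it or not depending on the library left out, with adh8 at 0.85 without the second set1Δ library and ght7 at -0.86 without the first, while their interactions remained called. Subtelomeric features as a whole were 33 higher and 77 lower at 30°C and 68 higher and 31 lower of 174 at 37°C, and their median went from -0.73 to 0.54. Long non-coding RNAs kept their shift, with 78 higher and 430 lower of 1366 at 37°C and a median of -0.60.

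**Figure D5:**
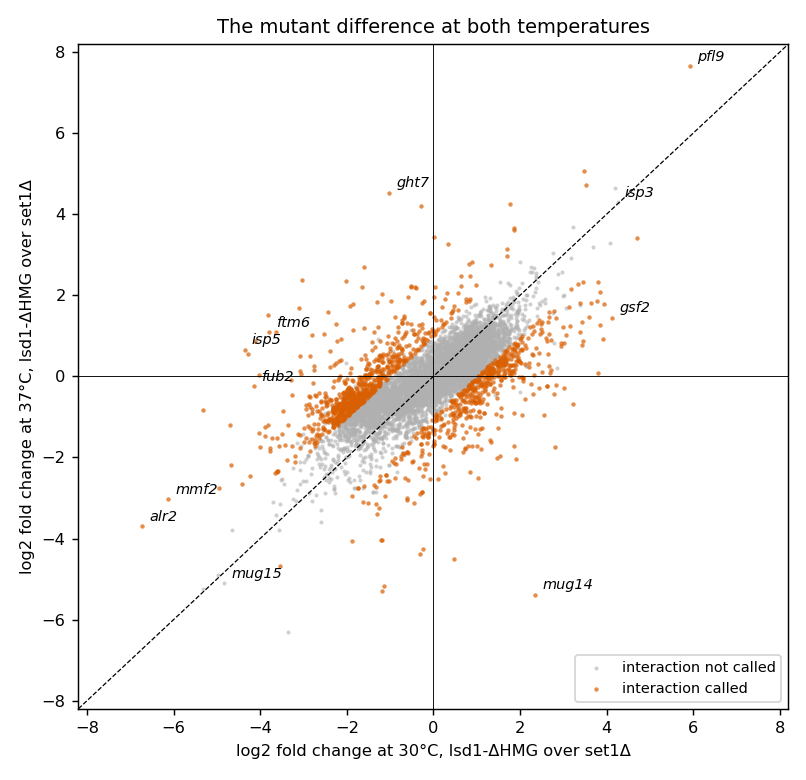
Log2 fold change of lsd1-ΔHMG over set1Δ at 37°C against that at 30°C for each feature tested at 30°C. Orange features were called in the interaction between mutant and temperature, grey ones were not, and the dashed line marks equal differences. pfl9 lies above the line at 5.92 and 7.66, and isp5, ght7 and mug14 lie on opposite sides of 0 at the 2 temperatures.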

How the data were processed

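RNA of whole S. pombe cells was sequenced by the authors as strand-specific poly(A) libraries. Per the labels and methods, reads were trimmed (Trimmomatic 0.39), aligned with STAR to ASM294v2 and assigned with FeatureCounts to genes by fraction. The deposited values are expected counts without normalization, of which 73.7% to 83.6% per library were not whole (74.6% to 79.0% in the 4 libraries at 30°C), and they were rounded. The table holds 7268 features, and 22 of its 34 value columns were not used. Column labels gave the groups.

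The 4 libraries at 30°C were fitted alone with edgeR 4.0.16 (R 4.3.3, TMM, filterByExpr, robust quasi-likelihood fit, Benjamini-Hochberg adjustment over 6829 features). The difference at 37°C and the interaction came from the 8 mutant libraries. Standard errors were taken as the log2 fold change over the root of the F statistic. A feature was called at an adjusted p below 0.05 if its log2 fold change reached 1 in size. In simulated data 200 features were changed by 2 on the log2 scale, as many up as down, and the others were left unchanged. Of these 200, 99% were recovered at 30°C, and 1.98% of calls were false. The simulation held no trend with GC content or length and far fewer changed features than were called here. Its rates therefore do not cover the effects of scaling, GC content and length on the real calls. Alternatives used limma 3.58.1, DESeq2 1.42.0, other scalings, filters, thresholds and offsets, and left out each library. RefSeq ASM294v3 gave names, types, lengths and GC content for 94.2% of features, and no coordinates are given.

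The members, lists and naming rule were chosen with earlier results of these data known. Named are set1, lsd1, lsd2 and clr4, the 10 highest and 10 lowest called coding genes with a symbol, a mean of at least 50 counts and no overlap of groups, the 2 largest called members of each list, the 3 highest and 3 lowest non-coding RNAs, the 5 highest and 5 lowest interactions, and the mating-type and marker genes. Other list members, and the neighbours of isp5, were named after their values were seen. The list of mitochondrial genome genes had no matched member. With 2 libraries per group, precision is limited to the spread between them. Figures were drawn with matplotlib 3.10.9.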

Additional observations from a re-analysis of the deposited data

Results flagged for a closer look

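The difference between lsd1-ΔHMG and set1Δ was not the same at 37°C as at 30°C for 45 of the named genes, by edgeR's test of the interaction with a Benjamini-Hochberg adjusted p under 0.05 and an interaction of at least 1 in size. The largest adjusted p among them was 0.024 (mfm3). Some of these genes were named because their interaction was among the strongest, and many of the others because their difference at 30°C was large. The count of 45 is therefore partly set by the choice of genes and does not measure how common such a change is. Of all features tested, 19.3% were called in the interaction. The values below are the log2 difference at 37°C minus that at 30°C. No group has over 2 libraries, so no sample could be tested as an outlier.

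Among genes that stood higher in lsd1-ΔHMG at 30°C, the interaction was -7.75 for mug14, -3.72 for lsd90, -3.58 for vta1 and -3.54 for adh8. It was -3.47 for hsp16, -2.05 for ssa1, -1.82 for rds1, -1.59 for fbp1 and -1.78 for hry1. Among sugar and surface genes it was -2.99 for gpd3, -2.95 for ght3, -2.41 for ght6, -2.68 for gsf2 and -2.14 for pfl4. For pfl9 the difference was larger at 37°C (interaction 1.73).

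Among genes of mating and meiosis it was -2.12 for mfm1, -1.92 for mfm3, -2.08 for meu6, -1.12 for mat1-Mc and -1.13 for its copy mat3-Mc. It was -1.604 for mat1-Mi, which did not reach a call at 30°C (log2 fold change 0.00) and was lower in lsd1-ΔHMG at 37°C (-1.600). The non-coding RNAs meu3 and prl32 were at -2.59 and -2.19. Values for other roles were -1.82 for tef103, -1.12 for tef102, -1.41 for fip1, -1.35 for sre1, -1.304 for tgp1 and -1.22 for cdc22.

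Among genes that stood higher in set1Δ at 30°C the values were 3.03 for alr2, 3.09 for mmf2, 3.91 for fub2, 5.02 for isp5, 2.803 for cuf2, 1.55 for spn5, 1.32 for pcl1 and 5.56 for ght7. The subtelomeric genes ftm2 (4.78), ftm6 (4.89) and ftm7 (4.73), the histone H4 genes hhf1 (1.25) and hhf3 (1.96), and the non-coding RNAs prl15 (4.49), SPNCRNA.291 (2.196) and SPNCRNA.1299 (2.48) belong here as well.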

How the results depend on the processing

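Over the scalings, filters and tools tried, the features called at 30°C ranged from 2811 to 3205, apart from 2027 once offsets for GC content and length were set. With protein-coding genes alone 1953 were called at 30°C and 877 at 37°C, in a fit that tested fewer genes and set the TMM factors from them. A limit of 2 on the log2 scale with an adjusted p of at most 0.0001 left 483 at 30°C, 202 at 37°C and 161 in the interaction, and without a limit on the fold change there were 5824, 5309 and 3745. DESeq2 called 2925 and limma-voom 3020 features at 30°C. Leaving out each library in turn gave 2789 to 3113 calls at 30°C, 1285 to 1890 at 37°C and 1170 to 1462 in the interaction.

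The replicate number as a block gave 2982 calls at 30°C, 1588 at 37°C and 1347 in the interaction. With 2 pairs, and a correlation of 0.289 between the deviations of equally numbered libraries, the numbers do not establish a pairing. Of the named genes the block ended the call of prl32 alone.

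Among named genes 911 values under other settings kept direction and call, 30 lost the call, 1 gained it and 9 changed sign. With the offsets mcp7 turned to 0.015 and his2 to -0.41. lsd1, which lay near 0, was at 0.0051 with upper-quartile factors and -0.81 with the offsets. mat1-Mi, also near 0, was called with the offsets (1.91, adjusted p = 0.0024 from edgeR), and was at -0.035 with RLE factors, -0.036 with DESeq2, -0.22 with factors from coding genes, -0.012 with a mean of at least 50 counts, -0.0047 with the replicate block, -0.21 with coding genes alone, and from -0.19 to 0.19 over the fits without a library. The cause was not tested.

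With the offsets the list medians changed sign for glycolysis (-0.035), hexose transporters (-0.48), elongation factors (-0.082), ergosterol genes (-0.25), strain markers (-0.20), small (-0.24) and large (-0.28) ribosomal subunits, other long non-coding RNAs (0.17), snoRNAs (0.15) and the Lsd1-bound genes (-0.46). For the non-coding lists the offsets came from the trend of coding genes. Upper-quartile factors did so for heterochromatin factors (0.065), nitrogen starvation genes (0.13) and the proteasome list (0.17). Coding-gene factors did so for meiotic (-0.11) and Lsd1-bound genes (-0.10), coding genes alone for the same lists (-0.10 for both) and a mean of at least 50 counts for meiotic genes (-0.073). The proteasome list was at 0.029 with all 12 libraries and at 0.15 and 0.03 without the first library of lsd1-ΔHMG or of set1Δ, and the nitrogen starvation list ranged from -0.13 to 0.033 over the fits without a library.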
